A study of Mus musculus with 12 samples.

Results

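The members described here are 10 chemokine genes expressed, or looked for, in mouse 4T1 mammary carcinoma cells: *Cxcl1*, *Cxcl2*, *Cxcl5*, *Cxcl10*, *Cxcl16*, *Cx3cl1*, *Ccl2*, *Ccl5*, *Ccl7* and *Ccl20*. They were chosen by symbol among 35521 annotated genes with summed counts. The rule holds no measured value, but the members were chosen with earlier results of these data known. Of the 10 genes, 9 passed the expression filter that left 12555 genes for testing, and *Ccl7* did not. The 4T1 line was derived from a mammary tumor of a BALB/c mouse. Bulk RNA-Seq of total RNA was done in 3 groups with 4 libraries each. In Tu-Gr1+CD11b+–primed 4T1 cells (Tu-primed), 4T1 cells had shared medium for 48 hours with Gr1+ cells taken from tumors of 4T1-bearing BALB/c mice. In Spl-Gr1+CD11b+–primed 4T1 cells (Spl-primed), the Gr1+ cells came from the spleens of such mice, and parental 4T1 cells had no coculture. Gr1+ cells were isolated by magnetic column at day 21 after injection by the labels, where the study's methods give a later day, and were kept apart from the 4T1 cells by a membrane with 0.4 μm pores. The 4T1 cells were lysed in the well. No mouse carried a stated genetic change, all 3 groups are a single cell line, and the labels do not say whether the 4 libraries of a group came from separate cultures or separate donor mice. The p-values below therefore measure the spread between these libraries, which may be technical.

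Chemokines are small secreted proteins that guide leukocytes along gradients by binding receptors coupled to G proteins on the cell surface. CXCL1, CXCL2 and CXCL5 act on CXCR2 and draw neutrophils, CCL2 and CCL7 act on CCR2 and draw monocytes, and CXCL10 acts on CXCR3 on T and NK cells. CCL5 draws T cells and monocytes, and CCL20 acts on CCR6. CXCL16 and CX3CL1 are made as membrane-anchored proteins that can be cut from the surface, and bind CXCR6 and CX3CR1. The 4T1 tumor is known for a marked expansion of Gr1+CD11b+ myeloid cells in the host.

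On GRCm38, 4 of the genes lie on chromosome 5. *Cxcl5* spans chr5:90759360-90761624, *Cxcl1* chr5:90891241-90893115 and *Cxcl2* chr5:90903871-90905938, so that *Cxcl1* and *Cxcl2* are 10755 bases apart. *Cxcl10* (chr5:92346638-92348889) lies farther along the same chromosome on the minus strand. On chromosome 11, *Ccl2* (chr11:82035571-82037453) and *Ccl7* (chr11:82045712-82047525) are 8258 bases apart, *Ccl5* lies at chr11:83525778-83530518 and *Cxcl16* at chr11:70453983-70459984. *Cx3cl1* lies at chr8:94772009-94782427 and *Ccl20* at chr1:83116766-83119167.

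The promoter windows with a motif match are shown so that their letters and spacing can be compared between genes. Promoter sequences were taken from RefSeq on GRCm38.p6, as windows from 250 bases before to 50 bases after the start site, and were found for 5 of the 10 genes: *Cxcl1*, *Cxcl2*, *Cxcl10*, *Cx3cl1* and *Ccl20*. Both strands were searched for the kappaB consensus, bound by NF-kappaB dimers, for the interferon-stimulated response element (ISRE) core GAAANNGAAA, for the GAS element TTCNNNGAA of STAT dimers, and for the AP-1 element TGANTCA. The 4 stretches below run from 220 to 30 bases before the start site, with every match in capitals. They lie at chr5:90891025-90891215 on the plus strand, chr5:90903679-90903869 on the plus strand, chr5:92348919-92349109 on the minus strand and chr1:83116546-83116736 on the plus strand.
Cxcl1: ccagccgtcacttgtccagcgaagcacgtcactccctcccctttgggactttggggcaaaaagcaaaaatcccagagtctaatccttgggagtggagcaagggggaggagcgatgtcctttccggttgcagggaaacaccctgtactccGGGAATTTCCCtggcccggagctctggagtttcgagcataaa
Cxcl2: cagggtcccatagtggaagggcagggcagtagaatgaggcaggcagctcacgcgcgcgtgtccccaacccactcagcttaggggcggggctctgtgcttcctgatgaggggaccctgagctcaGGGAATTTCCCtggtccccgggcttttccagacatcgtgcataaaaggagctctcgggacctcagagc
Cxcl10: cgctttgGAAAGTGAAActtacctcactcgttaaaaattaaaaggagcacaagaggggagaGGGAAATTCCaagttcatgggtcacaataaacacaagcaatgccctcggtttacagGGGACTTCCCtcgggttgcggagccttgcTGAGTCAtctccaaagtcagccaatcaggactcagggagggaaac
Ccl20: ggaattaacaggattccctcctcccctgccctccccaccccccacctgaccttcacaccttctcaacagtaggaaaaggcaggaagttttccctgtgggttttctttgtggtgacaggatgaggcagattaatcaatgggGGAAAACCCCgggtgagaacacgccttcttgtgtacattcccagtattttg

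The kappaB consensus was matched in 4 of the 5 windows, and in 4.51% of all 32851 RefSeq promoter windows of the same length. *Cxcl1* held it from 71 to 61 bases before the start site and *Cxcl2* from 97 to 87 bases before it, in both cases as the same run of letters, matched on both strands. *Ccl20* held it from 80 to 71 bases before the start. *Cxcl10* held it at 159 to 150 and again at 103 to 94 bases before the start, and it alone among the 5 held the ISRE core, at 213 to 204 bases (3.44% of all windows), and the AP-1 element, at 74 to 68 bases (7.81% of all windows). None of the 4 motifs was found in the window of *Cx3cl1*, and the GAS element, present in 8.3% of all windows, was in none of the 5. No match overlapped that of another motif. A match describes letters and is no evidence of binding.

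**Figure D1:**
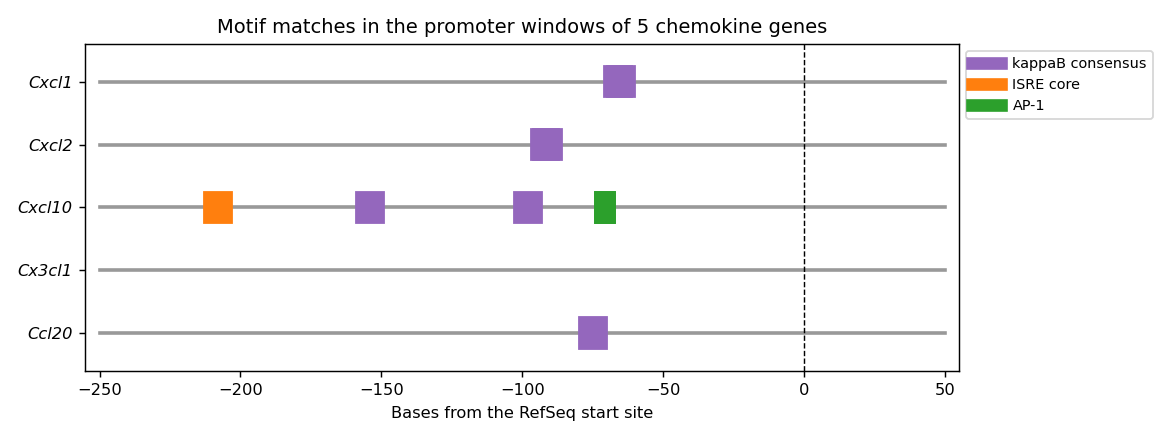
Motif matches by gene in the promoter windows, with the distance in bases from the RefSeq start site on the horizontal axis and 1 gray line for each gene's window. *Cxcl1*, *Cxcl2* and *Ccl20* each show 1 kappaB block between 97 and 61 bases before the start, *Cxcl10* shows 4 blocks and *Cx3cl1* none.

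Reads per gene were scaled to a common library size (CPM, with TMM factors between 0.88 and 1.05) and compared between groups. Log2 fold changes are from edgeR's quasi-likelihood test, and a gene was called at a Benjamini-Hochberg adjusted p under 0.05 over all tested genes. Library totals ranged from 24566183 to 31637755 reads. All 8 epithelial markers were expressed, with a summed level of 1907 to 2337 CPM in Tu-primed, 2394 to 2578 CPM in Spl-primed and 2674 to 3975 CPM in parental libraries. Parental replicate 4 and Spl-primed replicate 3 stood farthest from the other libraries of their groups by a chi-square comparison of counts, and results that change without them are given with both values.

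Of the 9 members tested, 5 were higher in Tu-primed than in parental 4T1 cells (31.2% of all tested genes were called higher) and 1 was lower (28% of all tested genes). In Spl-primed against parental cells, 5 were higher (25.7% of all tested genes) and 0 lower (22.5%). *Cxcl1*, *Cxcl2*, *Cxcl5* and *Ccl2* rose in each of the comparisons with parental cells, *Cxcl10* rose in Tu-primed and *Ccl20* in Spl-primed cells. Between the primed groups, 0 members were called higher in Tu-primed cells (4.66% of all tested genes) and 1 lower (2.97%), *Cx3cl1*. The median log2 fold change of the 9 members was 0.57, 0.43 and -0.08 in the 3 comparisons in this order, beside medians of 0.02, 0.02 and -0.01 over all tested genes. The set was chosen with earlier results of these data known, so its counts and medians are descriptions only. For the count of 0 lower in Spl-primed cells, 1 member had an unadjusted p under 0.05 (*Cx3cl1*, 0.0372) and was called by DESeq2. For the count of 0 higher in Tu-primed than Spl-primed cells, 1 member had an unadjusted p under 0.05 (*Cxcl10*, 0.00476) and was likewise called by DESeq2, while limma-voom called 0 members in either case. In the lower direction between the primed groups, *Ccl20* (0.0047) and *Ccl5* (0.0194) also had an unadjusted edgeR p under 0.05. Of these, DESeq2 and limma-voom called *Ccl20*. The comparisons with parental cells share the 4 parental libraries, so their values are given side by side and are not independent of each other. In bulk RNA, more cells that express a gene and more RNA per cell cannot be told apart.

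**Figure D2:**
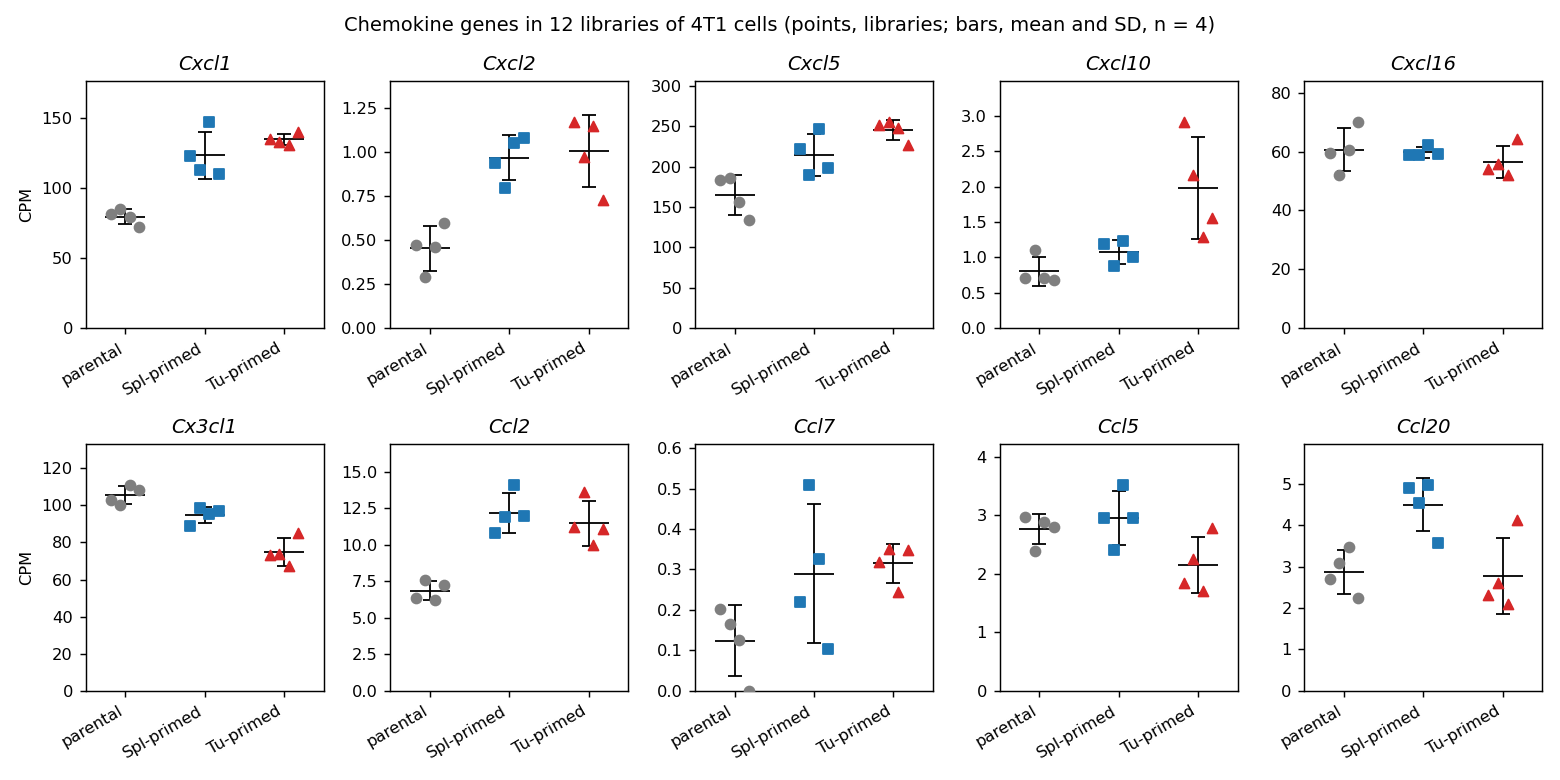
CPM of each of the 10 genes (vertical axes, each starting at 0) in the 3 groups, with 1 point per library and bars for the mean and SD (n = 4). All primed libraries lie above all parental ones for *Cxcl1*, *Cxcl2*, *Cxcl5* and *Ccl2*, and all Tu-primed libraries lie below all parental ones for *Cx3cl1*.

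*Cxcl1*, the mouse counterpart of the GRO chemokines that recruit neutrophils, rose after priming with Gr1+ cells of either source. It stood at 135, 133, 131 and 140 CPM in the Tu-primed libraries, at 123, 113, 147 and 110 CPM in the Spl-primed libraries, and at 81.6, 85.1, 79.1 and 72.3 CPM in the parental libraries. The lowest primed library lay above the highest parental one. The level was 1.69-fold that of parental cells in Tu-primed (95% interval 1.5 to 1.91, log2 fold change 0.76, SE 0.08, edgeR adjusted p = 5.36e-06) and 1.55-fold in Spl-primed cells (1.37 to 1.75, log2 fold change 0.63, SE 0.08, adjusted p = 4.79e-05). Between the primed groups the log2 difference was 0.13 (95% interval -0.05 to 0.30, adjusted p = 0.384). Spl-primed replicate 3 was the highest of all 12 libraries, and without it the difference was 0.24 with an adjusted p of 0.0184.

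*Cxcl5*, another ligand of CXCR2 that attracts neutrophils, rose in both primed groups. The 4 Tu-primed libraries held 252, 255, 248 and 227 CPM, the Spl-primed ones 222, 190, 247 and 198 CPM, and the parental ones 184, 186, 156 and 134 CPM. Primed and parental libraries did not overlap, although Spl-primed replicate 2 at 190 CPM was close to parental replicate 2 at 186 CPM. The rise was 1.49-fold in Tu-primed (95% interval 1.28 to 1.74, log2 fold change 0.57, SE 0.10, edgeR adjusted p = 0.000324) and 1.3-fold in Spl-primed cells (1.11 to 1.51, log2 fold change 0.38, SE 0.10, adjusted p = 0.00838). The primed groups overlapped, with a log2 difference of 0.20 (95% interval -0.02 to 0.42, adjusted p = 0.279).

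*Cxcl2*, known as MIP-2 and also a neutrophil attractant, was at low level in every library. It was covered by 33, 25, 33 and 21 reads in the Tu-primed libraries, 30, 22, 29 and 31 in the Spl-primed libraries, and 14, 7, 11 and 15 in the parental libraries. Every primed library held more reads than every parental one. On the CPM scale this was 1.01 ± 0.206 (SD, n = 4) in Tu-primed, 0.968 ± 0.127 in Spl-primed and 0.455 ± 0.128 in parental cells, a log2 fold change of 1.13 (SE 0.26, edgeR adjusted p = 0.00184) and of 1.08 (SE 0.26, adjusted p = 0.00365) against parental cells. The primed groups differed by 0.06 on the log2 scale (95% interval -0.44 to 0.55, adjusted p = 0.922). The *Cxcl2* calls were lost when transcript length entered the fit, with log2 fold changes of 0.81 (adjusted p = 0.139) and 0.75 (adjusted p = 0.197). They were lost likewise with limma on the deposited normalized counts, at 0.73 (adjusted p = 0.181) and 0.69 (adjusted p = 0.222). In parental replicate 3, 6.2 of the 11 *Cxcl2* reads had been assigned to a retained-intron transcript with an effective length of 148 bases, and its deposited normalized count was 40.5, against 6.72 to 14.2 in the other parental libraries.

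*Ccl2*, known as MCP-1 and the main ligand of CCR2, rose in both primed groups. Its levels were 11.2, 13.6, 9.96 and 11.1 CPM in Tu-primed, 10.8, 11.9, 14.1 and 12 CPM in Spl-primed, and 6.37, 7.62, 6.25 and 7.23 CPM in parental libraries. All 8 primed libraries were above the 4 parental ones. The fold was 1.67 in Tu-primed (95% interval 1.41 to 1.97, log2 fold change 0.74, SE 0.11, edgeR adjusted p = 8.12e-05) and 1.78 in Spl-primed cells (1.51 to 2.1, log2 fold change 0.83, SE 0.11, adjusted p = 6.15e-05). Between the primed groups the log2 difference was -0.09 (95% interval -0.32 to 0.14, adjusted p = 0.655).

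*Ccl7*, the neighbor of *Ccl2* and also a monocyte attractant, did not pass the filter. It was covered by 9, 9, 7 and 10 reads in Tu-primed, 7, 14, 9 and 3 in Spl-primed, and 6, 4, 3 and 0 in parental libraries. The Tu-primed libraries were all above the parental ones, and the Spl-primed libraries overlapped both groups. In a fit without the filter, the log2 fold change against parental cells was 1.29 (SE 0.62, edgeR adjusted p = 0.111) for Tu-primed and 1.15 (SE 0.62, adjusted p = 0.183) for Spl-primed cells. The count of 0 leaves room for up to 3 counts (counting error only), and 3 counts in parental replicate 3 stood at 0.126 CPM.

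*Cxcl10*, an interferon-inducible ligand of CXCR3, rose in Tu-primed cells. Its counts were 82, 56, 37 and 45 in the Tu-primed libraries, 38, 24, 34 and 29 in the Spl-primed libraries, and 21, 27, 17 and 17 in the parental libraries. On the CPM scale the Tu-primed libraries (2.91, 2.17, 1.29 and 1.56) were above every Spl-primed library (1.19, 0.872, 1.23 and 1.01) and every parental library (0.708, 1.11, 0.713 and 0.679), and the last groups overlapped. The log2 fold change against parental cells was 1.30 in Tu-primed (SE 0.27, 95% interval 0.72 to 1.89, edgeR adjusted p = 0.00103) and 0.43 in Spl-primed cells (SE 0.29, 95% interval -0.18 to 1.04, adjusted p = 0.232). Tu-primed cells were at 1.84 times the level of Spl-primed cells (95% interval 1.24 to 2.71, log2 fold change 0.88, SE 0.26), and the adjusted p of 0.0568 missed the threshold. Over the alternatives that adjusted p lay between 0.0233 (DESeq2) and 0.205 (without Tu-primed replicate 1). It fell to 0.0385 without Tu-primed replicate 3, 0.0459 without Tu-primed replicate 4 and 0.0482 without parental replicate 2.

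*Ccl20*, which attracts CCR6-bearing lymphocytes and dendritic cells, rose in Spl-primed cells. The Spl-primed libraries held 4.9, 4.54, 4.98 and 3.58 CPM and the parental libraries 2.7, 3.09, 3.48 and 2.24 CPM, without overlap. In the Tu-primed libraries it was at 2.31, 2.6, 2.1 and 4.13 CPM. Only Tu-primed replicate 4 reached the Spl-primed range, and the other Tu-primed libraries lay within or below the parental range. The log2 fold change against parental cells was 0.65 in Spl-primed (SE 0.21, 95% interval 0.20 to 1.09, edgeR adjusted p = 0.0187) and -0.04 in Tu-primed cells (SE 0.21, 95% interval -0.50 to 0.42, adjusted p = 0.877). Without parental replicate 4 the change in Spl-primed cells was 0.55 with an adjusted p of 0.0569. Tu-primed against Spl-primed cells gave -0.69 (SE 0.21, 95% interval -1.13 to -0.25, adjusted p = 0.0564), which missed the threshold. With all 12 libraries, *Ccl20* was called lower in Tu-primed than Spl-primed cells by DESeq2, by limma-voom and with at least 10 counts per library. The adjusted p of that difference lay between 0.00432 and 0.183 over the alternatives. It was 0.00432 without Tu-primed replicate 4, where the log2 difference was -0.95, 0.0439 without Spl-primed replicate 4 and 0.0468 without parental replicate 4.

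*Cx3cl1* (fractalkine), which binds CX3CR1 on monocytes and NK cells and can act as an adhesion molecule, fell in Tu-primed cells. It stood at 73.2, 73.8, 67.3 and 85.3 CPM in Tu-primed, 88.7, 98.3, 95.1 and 96.8 CPM in Spl-primed, and 103, 100, 111 and 108 CPM in parental libraries. The 3 groups did not overlap, in the order Tu-primed, Spl-primed, parental. The log2 fold change of Tu-primed cells was -0.50 against parental (SE 0.07, 95% interval -0.64 to -0.35, edgeR adjusted p = 3.75e-05) and -0.34 against Spl-primed cells (SE 0.07, 95% interval -0.49 to -0.19, adjusted p = 0.00732). Spl-primed cells were at 0.897 times the parental level (95% interval 0.81 to 0.993, log2 fold change -0.16, adjusted p = 0.0714), above the threshold. That adjusted p lay between 0.0318 and 0.187 over the alternatives and was 0.0318 without Tu-primed replicate 4. The difference between the primed groups missed the threshold when transcript length entered the fit (log2 -0.31, adjusted p = 0.0778) and with limma on the deposited normalized counts (log2 -0.31, adjusted p = 0.088).

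*Cxcl16*, the other membrane-anchored chemokine, was at 52.1 to 64.4 CPM in Tu-primed, 58.7 to 62.3 CPM in Spl-primed and 52.2 to 70 CPM in parental libraries. The ranges overlapped in every comparison. Against parental cells it differed on the log2 scale by -0.10 in Tu-primed (95% interval -0.27 to 0.08, edgeR adjusted p = 0.323) and -0.02 in Spl-primed cells (95% interval -0.20 to 0.16, adjusted p = 0.852). Between 71.4% and 77.6% of its reads were assigned to the protein-coding transcript in the 12 libraries, and most of the others to a transcript annotated for nonsense-mediated decay. The share was 71.4% to 74.9% in Tu-primed, 71.8% to 77.6% in Spl-primed and 75.1% to 76.1% in parental cells. For *Cxcl1* the protein-coding share was 97.5% to 98.5% in Tu-primed, 95.3% to 97.1% in Spl-primed and 99% to 99.8% in parental libraries, and the remainder lay on a retained-intron transcript. These shares of *Cxcl1* did not overlap between groups. For *Ccl2* the share was likewise lowest in Spl-primed libraries, at 97.2% to 98.1%. It was 98.6% to 99.6% in Tu-primed and 98.5% to 100% in parental libraries, which overlapped each other. For *Cxcl5* the shares overlapped between all groups, at 98.2% to 98.7% in Tu-primed, 97.8% to 98.8% in Spl-primed and 98.6% to 99.8% in parental libraries. No test was made of these shares, and they were not set beside those of all genes.

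*Ccl5* (RANTES), which recruits T cells, monocytes and eosinophils, showed no call. The Tu-primed libraries were at 1.85, 2.25, 1.71 and 2.78 CPM, the Spl-primed ones at 2.95, 2.4, 3.52 and 2.96 CPM, and the parental ones at 2.97, 2.39, 2.89 and 2.8 CPM. Tu-primed replicate 4 was the highest of its group and lay among the values of the other groups, as it did for *Ccl20*. The log2 fold change was -0.36 for Tu-primed against parental (95% interval -0.74 to 0.02, edgeR adjusted p = 0.0907), 0.10 for Spl-primed against parental (95% interval -0.27 to 0.47, adjusted p = 0.666) and -0.46 for Tu-primed against Spl-primed cells (95% interval -0.84 to -0.09, adjusted p = 0.13). Without Tu-primed replicate 4, *Ccl5* was lower in Tu-primed cells by both comparisons, at -0.52 against parental (adjusted p = 0.0226) and -0.61 against Spl-primed cells (adjusted p = 0.0423).

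**Figure D3:**
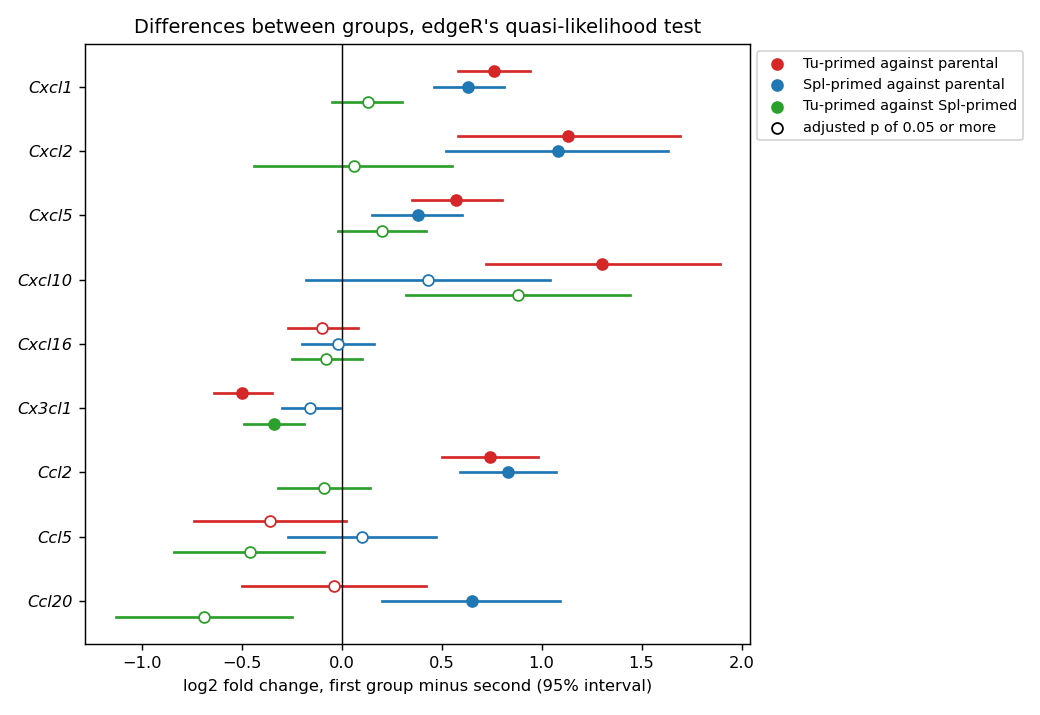
Log2 fold changes of the 9 tested genes (horizontal axis, first group minus second) with 95% intervals in the 3 comparisons, with filled points for an adjusted p under 0.05 and open points otherwise. *Cxcl1*, *Cxcl2*, *Cxcl5* and *Ccl2* lie right of 0 against parental cells and near 0 between the primed groups, whereas *Cxcl10*, *Cx3cl1*, *Ccl5* and *Ccl20* have intervals between the primed groups that exclude 0.

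**Figure D4:**
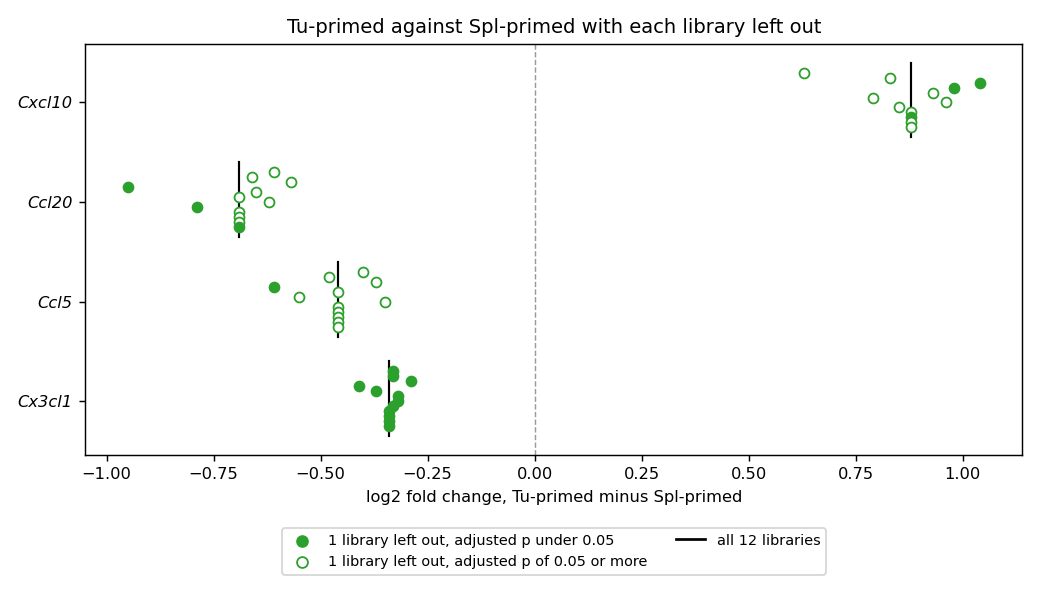
Log2 fold change of Tu-primed against Spl-primed cells (horizontal axis) for 4 genes, with 1 point for each of the 12 libraries left out and a line for all 12. *Cx3cl1* was called in every case. *Cxcl10* ranged from 0.63 to 1.04, *Ccl20* from -0.95 to -0.57 and *Ccl5* from -0.61 to -0.35. In these edgeR fits, *Cxcl10*, *Ccl20* and *Ccl5* were called only without certain libraries. With all 12 libraries, DESeq2 called *Cxcl10* and *Ccl20*.

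Levels of different genes were compared per transcript length, in TPM, a measure that scales reads by transcript length and then to a fixed total per library. *Cxcl1* and *Cxcl5* led in all groups, with 259 ± 7.08 and 253 ± 13.4 TPM (SD, n = 4) in Tu-primed, 224 ± 21.1 and 211 ± 16.6 TPM in Spl-primed, and 113 ± 19.4 and 126 ± 32 TPM in parental cells. Their ranges overlapped in each group, so that no order between them is given. Together they made up 77.7% to 81.9% of the summed TPM of the 10 genes in Tu-primed libraries, 73.8% to 76.5% in Spl-primed and 66.1% to 73.2% in parental libraries. These shares did not overlap between groups. Against parental cells this adds no separate result, since both genes were called higher there. Between the primed groups neither *Cxcl1* nor *Cxcl5* was called (edgeR adjusted p = 0.384 and 0.279), and the difference in their share was not tested. *Cxcl16* and *Cx3cl1* followed, at 43.4 and 36.9 TPM in Tu-primed, 43.3 and 43.8 TPM in Spl-primed, and 32.8 and 38.1 TPM in parental cells. The ranges of that pair overlapped in Spl-primed and parental libraries but not in Tu-primed ones, where *Cxcl16* was higher. *Ccl2* came next, at 27.7, 28.2 and 12.1 TPM in the same order of groups, and overlapped *Cx3cl1* in Tu-primed and *Ccl5* in parental libraries. *Ccl5* (10.3, 13.6 and 9.71 TPM) and *Ccl20* (6.79, 10.6 and 5.18 TPM) overlapped in both primed groups. *Cxcl10* (3.19, 1.66 and 0.961 TPM) and *Cxcl2* (1.79, 1.61 and 0.865 TPM) overlapped in every group, and *Ccl7* had the lowest mean, at 0.78, 0.688 and 0.235 TPM, with a range that overlapped that of *Cxcl2* in parental libraries. The mitochondrial transcript *mt-Atp8* took 10.2% to 15% of all TPM in parental libraries, against 4.52% to 5.76% in Tu-primed and 5.06% to 7.05% in Spl-primed ones. TPM is therefore used here for the order of genes within a group and their shares within a library. It is not used for changes in the level of a gene between groups.

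**Figure D5:**
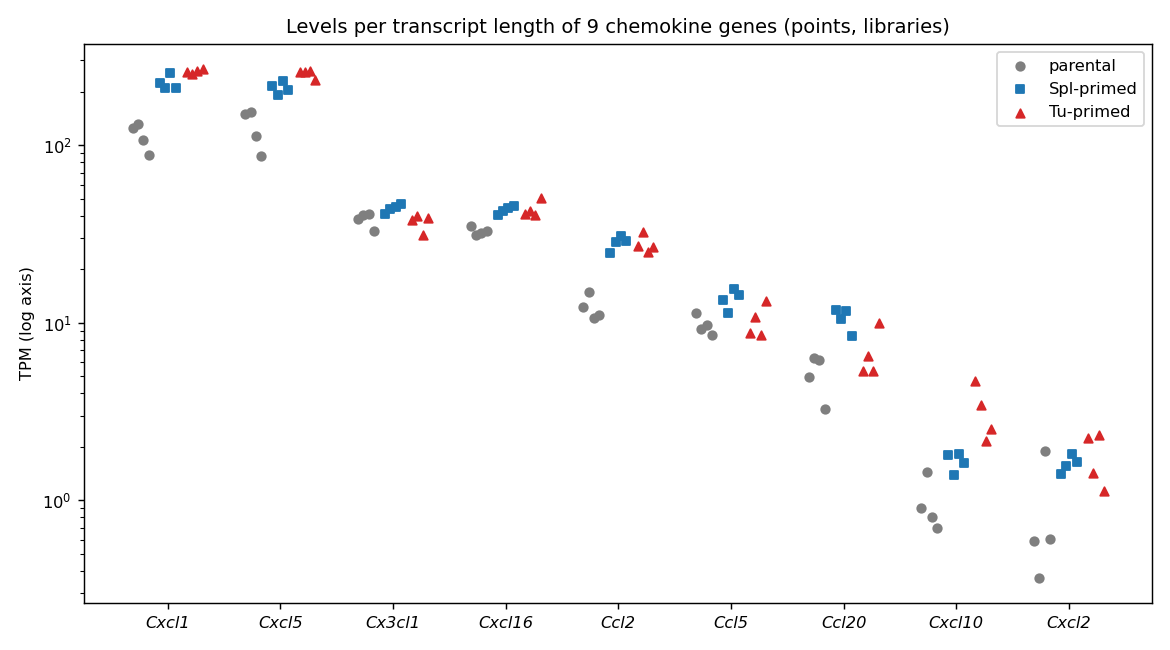
TPM (vertical log axis) of 9 of the genes in the 12 libraries, with points colored by group and genes in the order of their mean levels in Spl-primed cells. *Cxcl1* and *Cxcl5* lie above all other genes in every library, and *Cxcl10* and *Cxcl2* lie lowest.

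Within a group, some libraries were high or low for several of the genes at once. Spl-primed replicate 3 was the highest of its group for *Cxcl1*, *Cxcl5*, *Cxcl10*, *Cxcl16*, *Ccl2*, *Ccl5* and *Ccl20*. Tu-primed replicate 4 was the highest of its group for *Cxcl1*, *Cxcl16*, *Cx3cl1*, *Ccl5* and *Ccl20* and the lowest for *Cxcl2* and *Cxcl5*. Parental replicate 4 was the lowest of its group for *Cxcl1*, *Cxcl5*, *Cxcl10* and *Ccl20* and the highest for *Cxcl2* and *Cxcl16*. The deviations of *Cxcl10* from its group mean in Tu-primed cells ran from -0.53 in replicate 3 to 0.6 in replicate 1 on the log2 CPM scale, whereas those of *Cxcl1* ran from -0.03 to 0.05.

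Of 29 other chemokine ligand genes, 4 passed the filter, and 16 had no read in any library. *Ccl25*, which acts on CCR9, rose in both primed groups, from 2.13 ± 0.386 CPM (SD, n = 4) in parental cells to 3.85 ± 0.246 CPM in Tu-primed (log2 fold change 0.85, edgeR adjusted p = 0.000358) and 3.97 ± 0.601 CPM in Spl-primed cells (log2 fold change 0.89, adjusted p = 0.000398). *Cxcl3* is a further CXCR2 ligand, at chr5:90786103-90789600 between *Cxcl5* and *Cxcl1*. It was at 3.62 ± 0.479, 3.7 ± 1.24 and 3.4 ± 0.397 CPM in Tu-primed, Spl-primed and parental cells and was not called (log2 fold change 0.09, adjusted p = 0.736, and 0.12, adjusted p = 0.655). *Cxcl1*, *Cxcl2* and *Cxcl3* are related in sequence, and reads that fit more than 1 of them were divided by estimation, so their separate values carry that uncertainty. *Ccl9* (log2 fold change 1.06, adjusted p = 0.0901 in Tu-primed, and 0.45, adjusted p = 0.515 in Spl-primed cells against parental) and *Ppbp* (-0.20, adjusted p = 0.763, and 0.12, adjusted p = 0.866) were not called.

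Of 23 chemokine receptor genes, 5 passed the filter and 8 had no read, *Ccr2*, *Ccr6* and *Cxcr6* among them. *Ackr3*, an atypical receptor that takes up CXCL12 and CXCL11, was at 34.9 ± 4.99 CPM (SD, n = 4) in Tu-primed, 15.6 ± 0.8 CPM in Spl-primed and 13.2 ± 1.02 CPM in parental cells. Tu-primed cells were higher by 1.4 on the log2 scale than parental (edgeR adjusted p = 1.86e-07) and by 1.16 than Spl-primed cells (adjusted p = 1.14e-05), and in Spl-primed against parental cells it was 0.24 (adjusted p = 0.0574). *Ccrl2*, a non-signaling receptor that binds chemerin, rose in Tu-primed against parental cells (log2 fold change 0.79, adjusted p = 0.00439). *Cxcr2*, the receptor for CXCL1, CXCL2 and CXCL5, was at 2.4, 2.16 and 2.13 CPM in Tu-primed, Spl-primed and parental cells, with log2 fold changes against parental of 0.16 (adjusted p = 0.634) and 0.01 (adjusted p = 0.978). *Cxcr3*, the receptor for CXCL10, was at 7.88, 8.82 and 7.47 CPM, with log2 fold changes of 0.08 (adjusted p = 0.626) and 0.24 (adjusted p = 0.129). *Cxcr4*, the receptor for CXCL12, was at 2.78, 2.28 and 2.09 CPM, with log2 fold changes of 0.41 (adjusted p = 0.0789) and 0.12 (adjusted p = 0.64).

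Lists of genes with roles around chemokines were counted in the same fit, and each count is set beside the share of all tested genes called in the same direction. The lists, too, were chosen with earlier results of these data known, so the counts are descriptions only. All 12 NF-kappaB subunits and regulators were tested. Against parental cells, 5 rose and 4 fell in Tu-primed (31.2% and 28% of all tested genes) and 5 rose and 4 fell in Spl-primed cells (25.7% and 22.5% of all tested genes), with median log2 fold changes of -0.03 and 0.19. *Tnfaip3*, a deubiquitinase that limits NF-kappaB, rose by 0.90 and 0.84 on the log2 scale (edgeR adjusted p = 7.92e-06 and 3.03e-05), while *Nfkbib*, an inhibitor that holds NF-kappaB in the cytoplasm, fell by 0.63 and 0.44 (adjusted p = 0.00156 and 0.0169). Of 8 interferon-linked transcription factors, 6 rose in Tu-primed (31.2% of all tested genes) and 5 in Spl-primed against parental cells (25.7%), and 6 were higher in Tu-primed than in Spl-primed cells (4.66%). *Irf7* was at 40.2 ± 22.2 CPM in Tu-primed and 1.99 ± 0.375 CPM in Spl-primed cells (log2 difference 4.33, adjusted p = 2.42e-05), and *Irf9* at 46.3 ± 14.8 and 7.11 ± 0.886 CPM (log2 difference 2.70, adjusted p = 4.7e-06). Both factors act in the interferon response to which *Cxcl10* belongs, and their part in its level was not tested.

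Receptors for cytokines that act on chemokine genes numbered 16, all tested. In Tu-primed against parental cells 8 rose and 3 fell (31.2% and 28% of all tested genes). In Spl-primed against parental cells 5 rose and 4 fell, close to the shares of 25.7% and 22.5% of all tested genes, and in Tu-primed against Spl-primed cells 5 were higher (4.66%). *Osmr*, the oncostatin M receptor subunit, led these genes with a log2 fold change of 2.51 in Tu-primed (edgeR adjusted p = 3.97e-08) and 0.47 in Spl-primed against parental cells (adjusted p = 0.013). Of 8 regulators of mRNA stability, 3 rose and 3 fell in each comparison with parental cells, beside 31.2% and 28% of all tested genes for Tu-primed and 25.7% and 22.5% for Spl-primed cells. *Zfp36*, whose protein destabilizes AU-rich mRNAs, rose by 0.30 in Tu-primed cells (adjusted p = 0.00444), and *Zfp36l2* fell by 0.45 and 0.31 in Tu-primed and Spl-primed cells (adjusted p = 6.94e-06 and 0.000278). Of 9 sheddases, proteases and anchors of chemokines, 8 were tested, and 4 rose and 1 fell in Tu-primed (31.2% and 28% of all tested genes) and 3 rose and 2 fell in Spl-primed against parental cells (25.7% and 22.5%). *Rhbdf2*, a partner of the sheddase ADAM17, rose by 0.44 and 0.51 (adjusted p = 0.000415 and 0.000237), and *Tpst2*, a tyrosine sulfotransferase of receptors, fell by 0.39 and 0.28 (adjusted p = 0.000557 and 0.00669).

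Markers of other cell types were counted because the primed cells had been cultured beside Gr1+ cells. Of 18 granulocyte and monocyte markers, 6 were tested and 7 stayed at or below 3 counts in every library. *Tyrobp*, *Retnlg* and *Camp* had 0 reads in all 12 libraries, *Ly6g* at most 3 and *Csf3r* at most 2. The summed level of the list was 173 to 205 CPM in Tu-primed, 148 to 165 CPM in Spl-primed and 144 to 148 CPM in parental libraries, and most of it was *Mmp9*, at 161, 137 and 124 CPM. In Tu-primed against parental cells 4 of the 6 tested markers rose (31.2% of all tested genes), led by *Ltf* (log2 fold change 1.21, edgeR adjusted p = 5.8e-05) and *Il1b* (0.95, adjusted p = 0.0114). In Spl-primed against parental cells 0 of the 6 were called by edgeR (25.7% of all tested genes were called higher and 22.5% lower). There, 1 marker had an unadjusted edgeR p under 0.05, *Il1b* at 0.0266. Between the primed groups 2 were higher in Tu-primed cells (4.66% of all tested genes), *Ltf* among them. Of 6 macrophage markers 2 were tested and *Mrc1* rose in both primed groups (log2 fold change 0.94, adjusted p = 0.000537, and 0.59, adjusted p = 0.0165), with summed levels of 6.4 to 8, 5.16 to 6.14 and 4.72 to 5.39 CPM in Tu-primed, Spl-primed and parental libraries, while *Adgre1*, *C1qa* and *C1qb* had 0 reads. All 5 T and NK cell markers had 0 reads. Of 5 fibroblast markers 1 was tested, *Pdgfra*, which rose in Tu-primed against parental cells (log2 fold change 0.83, edgeR adjusted p = 5.96e-05, beside 31.2% of all tested genes). *Pdgfra* was also called higher in Tu-primed than Spl-primed cells (log2 difference 0.62, beside 4.66%). The fibroblast list summed to 76.2 to 97.9 CPM in Tu-primed, 42.5 to 66.9 CPM in Spl-primed and 42.8 to 55.8 CPM in parental libraries. Of 4 endothelial markers 1 was tested and not called. Of the 8 epithelial markers 1 rose and 4 fell in Tu-primed (31.2% and 28% of all tested genes) and 1 rose and 3 fell in Spl-primed against parental cells (25.7% and 22.5%), led downward by *Krt8* (log2 fold change -0.78, adjusted p = 4.49e-05, and -0.48, adjusted p = 0.00273). The part of these markers in the chemokine values was not tested.

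For each tested chemokine, the 3 genes whose log2 CPM followed it most closely over the 12 libraries were named by Pearson's r. These are descriptions over libraries that fall into 3 groups and share depth and processing. The closest to *Cxcl1* were *Actr6* (0.978), *Dnase2a* (0.973) and *Blcap* (0.971), and the closest to *Cxcl5* were *Ctsl* (0.98), *Foxc1* and *Med10* (0.972 each). *Ccl2* was followed by *Ddx39b* (0.979), *Plpp5* (0.978) and *Rps18* (0.974), and *Cx3cl1* by *Gdpd5* (0.987), *Exosc10* (0.975) and *Sart3* (0.967). *Cxcl10* was followed by *Lgals8* and *Sgk1* (0.924 each) and *Mitd1* (0.923), and *Ccl20* by *AI467606* (0.925), *Ddx27* (0.908) and *Traf1* (0.891). For *Cxcl2* they were *Crem* (0.945), *Glt8d1* and *D3Ertd751e*, for *Ccl5* *Acat2* (0.924), *Asf1b* and *Mrpl49*, and for *Cxcl16* *Hps4* (0.918), *Ccdc22* and *Timm17b*. No chemokine gene was among them.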

How the data were processed

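RNA of 12 libraries of 4T1 cells in 3 groups of 4 was analysed. Per the submitters' processing notes, reads were checked with FastQC, trimmed with Trimmomatic 0.39 and quantified with Salmon 1.4.0, with GRCm38 named as the build. For each library the authors deposited, transcript by transcript, the estimated counts of Salmon without normalization, and TPM values scaled for transcript length and library size. They also deposited a signal table of normalized counts per gene, used only in an alternative with limma on log2(value + 1). Estimated counts were summed per gene with GENCODE M21 (116021 of 117081 transcripts matched, the others holding 0.326% to 0.419% of reads) and rounded. The libraries were prepared with a stranded kit.

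One fit of all 12 libraries without a replicate term was made in R 4.3.3 with edgeR 4.0.16 (filterByExpr, TMM, quasi-likelihood test), with Benjamini-Hochberg adjustment over 12555 genes and a threshold of 0.05. Log2 CPM used a prior count of 2. Alternatives were DESeq2 1.42.0, limma-voom (limma 3.58.1), RLE and upper-quartile factors, a minimum of 10 counts per library, unfiltered genes, a fit of the 8 libraries of a comparison alone, a replicate block, transcript length offsets, protein-coding transcripts, the deposited table, stricter thresholds (adjusted p of 0.01, or a log2 change beyond 1 in size), and each library left out. The fit was tested on simulated data. Within groups, all pairs of libraries differed beyond sampling noise (chi-square over its degrees of freedom of 3.46 or more). Precision rests on 4 libraries a group and totals of 24566183 to 31637755 reads. Python 3.11.15 (matplotlib 3.10.9, numpy 2.4.6, pandas 2.3.3) was used for tables and plots.

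The members and lists were chosen with earlier results of these data known. Named were the 10 members, other chemokine ligands and receptors that passed the filter, at most 2 called genes in each direction of each list, and the 3 genes most like each member. Receptors and markers with few or no reads, *Mmp9*, *mt-Atp8* and the library deviations were added to the named genes with their values in view. Protein sequences were not used here.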

Additional observations from a re-analysis of the deposited data

Results flagged for a closer look

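In 27 groups of 4 libraries (9 genes in 3 groups), the highest or lowest library was compared with the rest by Dixon's ratio of the gap to the range. Chance alone marks about 1 in 20 groups. *Cxcl10* in parental replicate 2 was at 0.24 on the log2 CPM scale, against -0.41 to -0.35 in the other parental libraries, a gap of 0.904 of the range. *Cxcl16* in Spl-primed replicate 3 was at 5.96, against 5.88 to 5.89 in the other Spl-primed libraries, a gap of 0.840 of a narrow range.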

How the results depend on the processing

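Of the 672 member values under alternatives, 626 kept their direction and their side of the threshold, 17 fell short of it, 18 came past it and 11 changed sign, all of the last among values not called. The 672 include the stricter thresholds, which reused the main fit, so that a value not called there could only stay so. Requiring a log2 change beyond 1 left 2 members higher and 0 lower in Tu-primed against parental cells. Of all 12555 tested genes, 866 and 83 remained. It left 1 member higher in Spl-primed against parental cells (548 of all tested genes). In Tu-primed against Spl-primed cells it left 0 lower (7 of all tested genes). The number lower in Spl-primed against parental cells was 1 with DESeq2, with RLE factors and with only the libraries compared. Of all genes tested, 3271 of 12555, 3175 of 12555 and 2600 of 12275 were lower there, in this order. For Tu-primed against Spl-primed cells, 1 was higher with DESeq2 and with at least 10 counts per library, and 2 were lower with DESeq2, limma-voom and at least 10 counts, against 0 with transcript length offsets and with the deposited table. Of all genes tested, 803 of 12555 and 569 of 11585 were higher there, in this order. The genes lower were 510 of 12555, 371 of 12555 and 368 of 11585, against 146 of 12555 and 122 of 12550. With each library left out in turn, the number lower ranged from 1 to 2 in Tu-primed against parental, 0 to 1 in Spl-primed against parental and 1 to 3 in Tu-primed against Spl-primed cells, where the number higher ranged from 0 to 1. Of all genes tested, between 402 of 12653 and 662 of 12642 were higher in that last comparison. The upper ends of 2, 1 and 3 lower were reached without Tu-primed replicate 4, the upper end of 1 in Spl-primed cells being *Cx3cl1*. Of the 12642 genes tested without that library, 3382, 2804 and 531 were lower in these comparisons. *Ccl20* in Tu-primed against parental cells was 0.00 with protein-coding transcripts and -0.30 to 0.07 with a library left out. *Cxcl16* in Spl-primed against parental cells was 0.00 with upper-quartile factors and with protein-coding transcripts, and -0.09 to 0.05 with a library left out. *Ccl5* in the same comparison ranged from -0.01 to 0.18, and *Cxcl2* in Tu-primed against Spl-primed cells from -0.03 to 0.18. The cause of these shifts was not tested. Replicate numbers were not used to pair the libraries in the main fit. Deviations of libraries with the same number correlated between -0.16 and 0.15, and between 0.08 and 0.15 for Tu-primed with parental libraries. The labels state no pairing, and these weak correlations cannot decide it. With the replicate block, 5 members were higher and 1 lower in Tu-primed against parental cells (3805 and 3389 of 12555 tested genes). In Spl-primed against parental cells 5 were higher and 0 lower (3078 and 2701). In Tu-primed against Spl-primed cells 0 were higher and 1 lower (488 and 256). *Cxcl2*, *Cxcl10*, *Ccl5*, *Ccl7* and *Ccl20* rest on few reads, which limits their precision, and *Cxcl2* gave no value with at least 10 counts per library.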
